A study of Homo sapiens with 18 samples.

Results

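The interaction between loss of CARM1 and tunicamycin was measured in 12 of the 18 RNA-seq libraries of the series, as the tunicamycin response of CARM1 knockout cells minus the tunicamycin response of control cells. A value below 0 means a lower response in the knockout cells and a value above 0 a higher one, both on a log2 scale, and the term of each gene is called when it passes a false discovery rate of 5% in edgeR's quasi-likelihood test. All 12 libraries came from A1847, an established cell line of high-grade serous ovarian cancer. There were 4 groups of 3 libraries, and the labels do not say that these came from separate cultures, so p-values measure the spread between these libraries. They were wild-type control cells with vehicle (WT.ctr), the same cells with tunicamycin (WT.TM), CARM1 knockout cells with vehicle (koCARM1.ctr) and CARM1 knockout cells with tunicamycin (koCARM1.TM). The knockout was made with a lentiviral CRISPR vector that carried 1 guide, followed by puromycin selection, and the sources used here do not say whether it is 1 clone or whether the control cells carried an empty vector. Of 57736 genes in the count table, 17317 had enough reads to be tested.

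CARM1 is an arginine methyltransferase that works as a coactivator of transcription. Tunicamycin blocks the first step of N-glycan assembly, so that unglycosylated proteins misfold in the endoplasmic reticulum (ER). The unfolded protein response then starts from 3 sensors. IRE1 splices the XBP1 mRNA, and the spliced product, XBP1s, switches on genes of secretion and of ER-associated degradation. ATF6 is cleaved in the Golgi and switches on chaperone genes, while PERK slows translation and lets ATF4 be made, which in turn switches on CHOP (gene DDIT3), amino acid supply and, under prolonged stress, genes of cell death. The comparison asks which of these outputs respond less, and which respond more, without CARM1.

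The control and knockout libraries stood far apart before any treatment. Pearson correlations of log2 CPM (read counts scaled to a common library size) were 0.9869 to 0.9889 between replicates, 0.9633 to 0.975 between treatments of a genotype and 0.7313 to 0.7692 between the 2 genotypes, across genes. In a fit of all 18 libraries, the XBP1 knockdown libraries of the series correlated with the control libraries at 0.9613 to 0.9868, and the knockout libraries correlated with the control libraries at 0.7305 to 0.7685. Knockout and control differed under vehicle in 12921 genes, or 74.6% of those tested, and under tunicamycin in 13014 genes, or 75.2%. Total counts ran from 9367462, in 1 knockout vehicle library, to 13917212.

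Markers of ovarian (Müllerian) epithelium differed between the 2 genotypes too. PAX8, a transcription factor of this epithelium, had a mean of 0.0493 CPM in control cells with vehicle and 60.1 CPM in knockout cells, and KRT7, a keratin of simple epithelia, 0.561 and 404 CPM. The 11 markers of that list summed to between 305 and 325 CPM in control vehicle libraries and between 2631 and 2723 CPM in knockout vehicle libraries. Most of that sum was KRT18 (255 and 1454 CPM) and KRT8 (57.2 and 720 CPM). KRT19 went the other way, with 0.731 CPM in control and 0 in knockout cells. WT1 (0 and 0.883 CPM) and SOX17 (0 and 0.0629 CPM) were near 0 in both genotypes, and MUC16 was at 0 in all libraries. Of the 8 fibroblast markers, PDGFRA (200 against 0.0821 CPM), COL3A1 (217 against 0.0649 CPM) and THY1 (42.8 against 0.145 CPM) were abundant in control cells and near 0 in knockout cells, whereas COL1A1 went from 14.6 to 470 CPM and FAP was at or near 0 in both. The summed fibroblast list was 474 to 485 CPM in control vehicle and 455 to 491 CPM in knockout vehicle libraries, and 374 to 387 and 183 to 210 CPM with tunicamycin. The 7 immune markers summed to at most 10.8 CPM and the 4 endothelial markers to at most 8.29 CPM in any library, with CD3E and KDR at 0. In the XBP1 knockdown cells under vehicle PAX8 was at 0.0473 CPM, KRT7 at 0.259, PDGFRA at 202, COL3A1 at 191 and THY1 at 50.2 CPM. The keratins KRT18 (115 against 255 CPM) and KRT8 (19.3 against 57.2 CPM) and PDGFRB (1.93 against 4.30 CPM) were lower there than in control cells. The effect of losing CARM1 and any other difference between these 2 cell populations cannot be told apart in any result below.

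CARM1 itself had 162, 158 and 157 CPM in the 3 control vehicle libraries and 71.9, 76.1 and 70.4 CPM in the knockout vehicle libraries. With tunicamycin it had 130, 137 and 131 CPM in control and 74.8, 66.4 and 69.0 CPM in knockout libraries. The groups of the 2 genotypes did not overlap, and the transcript remained readily detected in the knockout. Counts per gene do not show whether the coding sequence was disrupted, and the position of the guide was not analysed here. Its interaction term was 0.20 ± 0.08 (SE), which was not called (edgeR quasi-likelihood test, adjusted p = 0.0594). That depended on the processing: it was called above 0 in 8 of the 12 fits that left out 1 library, including all 6 without a control library (terms 0.16 to 0.29 over the 12), and with RLE scaling, library totals, each of the other filters and DESeq2.

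Tunicamycin changed more genes, and changed them further, in control cells than in knockout cells. In control cells 3946 genes rose, 22.8% of those tested, and 3801 fell, 21.9%. In knockout cells 2838 rose, 16.4%, and 3228 fell, 18.6%. The balance of rises and falls depended on scaling and filter, with 3275 rises and 4626 falls in control cells under library totals, and 3222 rises and 2817 falls in knockout cells without a filter. Among the 8338 genes with a mean of at least 10 CPM in a group of each genotype, the middle 90% of responses ran from -0.82 to 1.07 in control cells and from -0.57 to 0.75 in knockout cells. Of those genes, 492 had a response of at least 1 (a doubling) and 233 of at most -1 in control cells, against 257 and 68 in knockout cells.

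The interaction term was below 0 in 2151 genes, 12.4% of those tested, and above 0 in 1814 genes, 10.5%. Of the 8338 genes with at least 10 CPM in a group of each genotype, 1645 (19.7%) were below 0 and 1369 (16.4%) above. Each count of a function list below is to be read beside these shares. Of the 3946 genes that rose with tunicamycin in control cells, 1643 were below 0 and 117 above. A list made mostly of such genes is to be read beside these counts as well. The balance between the 2 directions depended on scaling: with library totals in place of TMM scaling, 1809 genes were below and 2175 above 0, and without the filter on low counts 1757 were below and 2392 above. Leaving out any 1 of the 6 control libraries also turned the balance, to between 1467 and 1759 genes below and between 2085 and 2324 above, while leaving out 1 knockout library did not. No gene was called in opposite directions under any of these settings. Terms of 459 genes below 0 and 388 above 0 had a size of at least 1, and those of 150 and 94 had a size of at least 2.

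**Figure D1:**
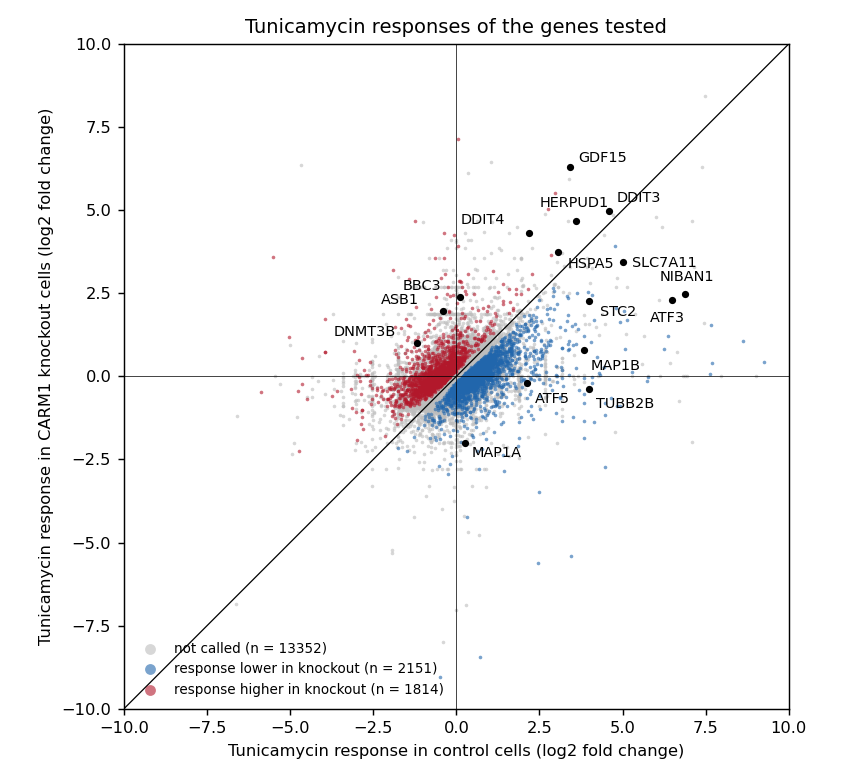
Tunicamycin response of each of the 17317 genes tested in control cells (horizontal axis) and in CARM1 knockout cells (vertical axis), both as log2 fold changes, with equal responses on the diagonal. Blue points (2151 genes) responded less and red points (1814 genes) more in the knockout at a false discovery rate of 5%, and the named genes are black. NIBAN1, ATF3 and TUBB2B lie far below the diagonal, and GDF15, DDIT4 and BBC3 above it.

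Responses that were called in control cells made up most of the terms. Of the 2151 genes below 0, 1643 (76.4%) rose with tunicamycin in control cells. In knockout cells 569 of these 1643 still rose, 859 were not called and 215 fell. A further 371 genes below 0 were not called in control cells and fell in knockout cells, and 94 fell in both. Of the 1814 genes above 0, 1377 (75.9%) fell in control cells, and in knockout cells 474 of them also fell, 761 were not called and 142 rose. Only 117 genes above 0 rose in both genotypes, so that a larger rise in the knockout of a gene that control cells also raised was the rarer outcome. The control response enters both the term and this sorting, so the counts describe the calls and are no separate test.

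**Figure D2:**
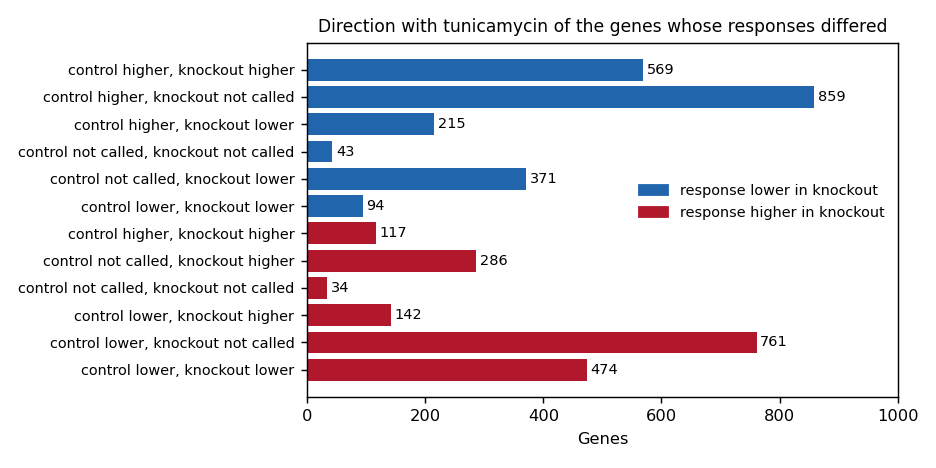
Number of genes (horizontal axis) with a called interaction term in each combination of directions with tunicamycin in control and knockout cells, for the 2151 genes with a lower response in the knockout (blue) and the 1814 with a higher one (red). The longest blue bar, 859 genes, holds genes that rose in control cells and were not called in knockout cells, and the longest red bar, 761 genes, those that fell in control cells and were not called in knockout cells.

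A lower term did not always mean a lower level under stress. Of the 2151 genes below 0, 744 were higher in knockout than in control cells under both treatments, 551 were lower under both, 366 differed only with tunicamycin (where the knockout was lower), 304 were higher only under vehicle and 184 crossed from higher under vehicle to lower with tunicamycin. Of the 1643 genes that rose in control cells and had a term below 0, 1551 (94.4%) also gained fewer CPM with tunicamycin in the knockout. Of the 1814 genes above 0, 651 were higher in the knockout under both treatments, 498 were lower under both, 273 were higher only with tunicamycin and 124 crossed from lower to higher.

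Several ER chaperones, BiP among them, responded more in knockout cells. HSPA5, which encodes BiP, the main HSP70 of the ER lumen, had 1259, 1275 and 1218 CPM in control vehicle libraries and 10581, 10278 and 10514 CPM with tunicamycin. In knockout cells it had 966, 963 and 967 CPM with vehicle and 12797, 12826 and 12991 CPM with tunicamycin. It was thus lower in the knockout under vehicle and higher with tunicamycin, with no overlap between libraries, and its term was 0.67 ± 0.04 (edgeR quasi-likelihood test, adjusted p = 1.06e-09). HSP90B1, the HSP90 of the ER (GRP94), rose from 801, 808 and 737 to 2378, 2380 and 2429 CPM in control cells and from 887, 857 and 860 to 4218, 4103 and 4001 CPM in knockout cells, a term of 0.63 ± 0.06. SDF2L1, a BiP cofactor, rose from 142 CPM in each control vehicle library to 897, 1109 and 1052 CPM, and in knockout cells from 60.8, 59.1 and 57.4 to 782, 726 and 713 CPM. Its term was 0.80 ± 0.09, and its level stayed lower in the knockout under both treatments. MANF, a secreted ER stress protein that binds BiP, had a term of 0.79 ± 0.08.

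Over the whole list of ER lumen chaperones both directions occurred. Of 19 tested, 6 were below 0 and 6 above, or 6 and 8 by DESeq2 and up to 9 above without 1 library, with a median term of 0.02 beside -0.01 over all genes tested, and 16 rose with tunicamycin in each genotype. The members below 0 were HSPA13, an HSP70-like ATPase of microsomes (-1.20 ± 0.10), the procollagen chaperone SERPINH1 (-0.78 ± 0.14), CRELD1, CRELD2, FKBP14 and FKBP10. FKBP9 and FKBP11, 2 prolyl isomerases, were not called in control cells and rose in knockout cells, with terms of 1.26 ± 0.11 and 1.14 ± 0.12. The lectin chaperones calnexin (CANX, 0.03 ± 0.06) and calreticulin (CALR, 0.22 ± 0.08) were not called (edgeR quasi-likelihood test, adjusted p = 0.786 and 0.0514).

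The J-domain cochaperones, which bring clients to BiP, had 6 of 11 members below 0 (54.5%) and 0 above, beside 12.4% and 10.5% of all genes tested. The median response was nonetheless 0.71 in control and 0.84 in knockout cells, a difference opposite in sign to the median term of -0.33. SEC63, which docks BiP at the translocon, rose by 1.64 in control and 0.84 in knockout cells (log2), and DNAJB11 rose by 2.41 and 1.67. DNAJB9 (ERdj4), a well-known XBP1s target, rose from 6.53, 8.21 and 7.08 to 101, 97.9 and 106 CPM in control cells and from 4.87, 3.86 and 4.17 to 46.6, 45.2 and 47.7 CPM in knockout cells. The libraries of the 2 genotypes did not overlap under either treatment, yet the responses of 3.80 and 3.42 differed by -0.38 ± 0.15, which was not called (edgeR quasi-likelihood test, adjusted p = 0.0807).

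Disulfide bond enzymes split as the chaperones did, with 8 of 21 below 0 (38.1%) and 4 above (19.0%), beside 12.4% and 10.5% of all genes tested. PDIA4, a disulfide isomerase found with BiP, rose from 83.0, 83.4 and 86.0 to 229, 263 and 265 CPM in control cells and from 59.4, 50.3 and 49.4 to 361, 324 and 308 CPM in knockout cells, a term of 1.05 ± 0.10. PDIA6 (0.44 ± 0.07), TXNDC5 (0.33 ± 0.12) and PDIA3 (0.30 ± 0.10) were above 0 as well, although TXNDC5 lost its call in 4 of the 12 fits without 1 library, in which the list's counts fell to 5 below and 2 above at the lowest. ERP44, which retains clients in the early secretory pathway, had a term of -1.13 ± 0.08, and the oxidase ERO1B, which regenerates disulfides, -0.98 ± 0.19.

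ER-associated degradation, which draws misfolded proteins back to the cytosol for the proteasome, had more called members below than above 0. They were 54.8% and 3.23% of the list, beside 12.4% and 10.5% of all genes tested. In control cells 22 genes of the list rose with tunicamycin. Of all 3946 genes that did so, 1643 were below 0 and 117 above. Of 31 genes tested, 17 were below 0, 13 were not called and 1 was above (up to 3 above under other scalings or without 1 library), and the median response was 0.96 in control and 0.24 in knockout cells, beside 0.00 and -0.02 over all genes. SELENOK, a selenoprotein of the retrotranslocation complex, rose from 33.4, 44.7 and 33.4 to 317, 332 and 324 CPM in control cells and from 61.9, 64.1 and 54.9 to 167, 166 and 170 CPM in knockout cells, a term of -1.66 ± 0.11. The knockout libraries were the higher ones under vehicle and the lower ones with tunicamycin. OS9, a lectin that recognises trimmed glycans, rose by 1.78 in control and 0.43 in knockout cells, and the ubiquitin-conjugating enzyme UBE2J1 by 1.39 and 0.24. SEL1L (-1.11 ± 0.08) and SYVN1 (-0.47 ± 0.09), the adaptor and the ligase of the HRD1 complex, and VCP (-0.87 ± 0.07), the ATPase that extracts clients, were below 0.

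HERPUD1, which recruits clients to the same HRD1 complex, was the member above 0. It rose from 22.5, 25.4 and 27.9 to 312, 297 and 311 CPM in control cells and from 43.4, 51.6 and 45.6 to 1171, 1203 and 1192 CPM in knockout cells. Its knockout libraries were higher under both treatments, and its term was 1.07 ± 0.09 (edgeR quasi-likelihood test, adjusted p = 4.35e-08).

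The proteasome, which destroys the extracted proteins, had 20 of 31 tested subunits below 0 (64.5%) and 0 above, with small terms. Over all genes tested 12.4% were below and 10.5% above. The median response was 0.16 in control and -0.12 in knockout cells, 16 subunits rose in control cells against 1 in knockout cells, and 4 fell in control cells against 16. PSMC2, an ATPase of the base, had the lowest term, -0.63 ± 0.12, followed by PSMA5 at -0.51 ± 0.09. The count of 20 fell to 14 at the lowest under other scalings and filters and to 10 when 1 library was left out, with 0 above throughout. The J-domain, COPI, COPII, UFMylation and proteasome lists had 0 members above 0 in edgeR at an unadjusted p under 0.05 and 0 in DESeq2. COPI reached 1 above under other scalings or filters, and COPI and J-domain each reached 1 above without 1 library. At the lowest, 4 J-domain, 6 COPI and 6 COPII genes were below 0 without 1 library.

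Entry into the ER, glycan transfer and export were examined next. In the list of translocon, signal recognition and signal peptidase genes 15 of 24 were below 0 (62.5%) and 1 above (4.17%). Over all genes tested these shares were 12.4% and 10.5%. SSR3, a subunit of the translocon-associated complex, rose by 1.33 in control and 0.42 in knockout cells, and SRP19 of the signal recognition particle by 1.73 and 1.00, whereas SRPRA, the receptor of that particle, had a term of 0.26 ± 0.08, a call that was lost in 2 of the fits without 1 library. Of 38 genes of N-glycan assembly, transfer and trimming, 14 were below 0 (36.8%), 22 were not called and 2 were above (5.26%). Up to 6 were above under other scalings and 1 to 5 without 1 library. The mannosyltransferase ALG12 had the lowest term, -1.12 ± 0.13, and TMEM258 and OST4, small subunits of the oligosaccharyltransferase, were the 2 above, and OST4 lost its call in 2 of the fits without 1 library. DPAGT1, the enzyme that tunicamycin inhibits, rose by 0.66 and 0.63 and was not called (-0.03 ± 0.10, edgeR quasi-likelihood test, adjusted p = 0.8975).

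The COPII coat, which buds vesicles from the ER, had 8 of 16 genes below 0 and 0 above. SEC24D, a cargo-binding subunit, rose from 6.08, 5.40 and 6.49 to 107, 99.2 and 101 CPM in control cells and from 16.7, 17.9 and 13.0 to 89.2, 86.5 and 85.7 CPM in knockout cells, a term of -1.65 ± 0.13. SEC31A, of the outer coat, rose from 116, 119 and 104 to 427, 393 and 410 CPM and from 122, 119 and 122 to 195, 205 and 198 CPM, a term of -1.14 ± 0.07. For SEC31A the 2 genotypes overlapped under vehicle and separated only with tunicamycin. The COPI coat, which returns vesicles to the ER, had 8 of 12 genes below 0 (66.7%) and 0 above, with a median response of 1.03 in control and 0.51 in knockout cells. COPA had 99.3, 93.6 and 101 CPM in control and 95.8, 97.0 and 88.5 CPM in knockout libraries with vehicle, and 320, 301 and 324 against 148, 157 and 142 CPM with tunicamycin. Its vehicle levels overlapped, and its term was -1.02 ± 0.08. Of 27 cargo receptors, tethers and SNAREs between ER and Golgi, 15 were below 0 (55.6%) and 1 above (3.7%), with YIPF5 (-1.06 ± 0.07) and MCFD2 (-0.85 ± 0.08) the lowest.

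UFMylation is a ubiquitin-like modification used on stalled ribosomes at the ER. Of its 7 genes 5 were below 0 and 0 above, and 3 were below at the lowest under other scalings or without 1 library. Of 26 autophagy genes 12 were below and 1 above, with 9 below at the lowest and 4 above at the highest in those fits. That was 71.4% of the UFMylation and 46.2% of the autophagy genes below 0, beside 12.4% of all genes tested. The shares above were 0 and 3.85%, beside 10.5%. CCPG1, a receptor for ER-phagy, rose from 14.9, 12.4 and 12.5 to 154, 125 and 131 CPM in control cells and from 28.8, 23.9 and 30.4 to 53.5, 53.6 and 54.7 CPM in knockout cells, a term of -2.40 ± 0.14. CALCOCO2 (NDP52), an autophagy receptor, had a term of -1.80 ± 0.08. MAP1LC3B, which marks the autophagosome, was the 1 above 0. It went from 61.1, 60.6 and 66.6 to 85.1, 81.8 and 88.8 CPM in control cells and from 90.0, 92.3 and 79.3 to 232, 238 and 240 CPM in knockout cells (0.99 ± 0.08).

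**Figure D3:**
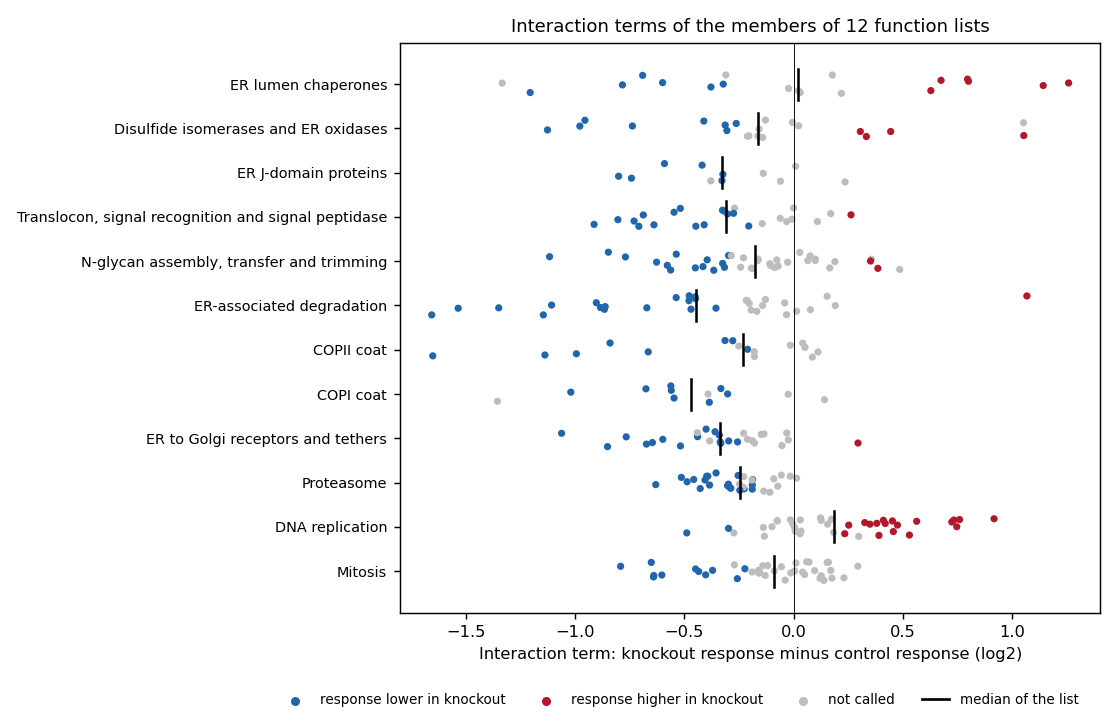
Interaction term of each tested member of 12 function lists (horizontal axis, log2), with the median of each list as a black line. Blue and red mark the members with a lower and a higher response in the knockout, and grey those not called. Chaperones and disulfide enzymes lie on both sides of 0, degradation, coat and proteasome genes mostly below it, and 18 of 39 DNA replication genes above it.

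The sensors themselves gave a mixed picture. All 11 genes of the list of sensors and membrane-bound factors rose with tunicamycin in control cells, and 7 rose in knockout cells. CREB3L1, CREB3L2, CREB3 and ATF6, which are cut in the Golgi to release transcription factors, were below 0. CREB3L1 went from 15.6, 14.9 and 15.3 to 21.1, 27.2 and 28.9 CPM in control cells and from 102, 103 and 99.3 to 49.3, 52.1 and 47.4 CPM in knockout cells. It thus rose in control and fell in knockout cells (-1.79 ± 0.12). The terms of ERN1 (IRE1, -0.39 ± 0.17) and EIF2AK3 (PERK, -0.36 ± 0.15) were not called (edgeR quasi-likelihood test, adjusted p = 0.105 and 0.0980). XBP1 had 50.2, 42.3 and 42.5 CPM in control and 29.7, 40.6 and 29.5 CPM in knockout libraries with vehicle, and 150, 145 and 145 against 138, 143 and 141 CPM with tunicamycin. Its term was 0.37 ± 0.12, above 0 (edgeR quasi-likelihood test, adjusted p = 0.0341), and counts per gene do not show how much of it was spliced. That call was lost when any of 4 single libraries was left out, with terms between 0.28 and 0.54.

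The branch of ATF4 and CHOP divided into 2 opposite parts. Of 18 genes tested, all rose in control cells and 16 in knockout cells, 9 were below 0 and 3 above, and the median response was 3.30 in control and 2.06 in knockout cells. ATF4 rose from 406, 403 and 421 to 1427, 1363 and 1481 CPM in control cells and from 536, 545 and 524 to 1273, 1304 and 1318 CPM in knockout cells, a term of -0.52 ± 0.06. ATF3, a stress-induced repressor, rose from 0.380, 0.576 and 0.721 CPM (5, 8 and 11 reads) to 51.3, 52.5 and 51.1 CPM in control cells and from 3.498, 5.09 and 3.49 to 21.7, 19.5 and 18.6 CPM in knockout cells. ATF5, a related activator, rose from 88.9, 95.1 and 91.2 to 350, 453 and 410 CPM in control cells. In knockout cells it had 55.2, 46.3 and 57.5 CPM with vehicle and 51.5, 46.0 and 41.4 CPM with tunicamycin, groups that overlapped, and its term was -2.33 ± 0.13. STC2, a secreted glycoprotein of this branch, had a term of -1.74 ± 0.08, and PPP1R15A (GADD34), which restores translation, -1.51 ± 0.13.

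The 3 above 0 were DDIT3, DDIT4 and GDF15. DDIT3 (CHOP), a proapoptotic factor, rose from 12.5, 13.3 and 9.96 to 290, 287 and 283 CPM in control cells and from 16.6, 16.7 and 20.7 to 548, 567 and 575 CPM in knockout cells, a term of 0.39 ± 0.12 (edgeR quasi-likelihood test, adjusted p = 0.0187). That call was lost in 2 of the 12 fits that left out 1 library. DDIT4 (REDD1), an inhibitor of mTORC1, rose from 73.0, 66.1 and 71.4 to 302, 322 and 331 CPM in control cells and from 3.12, 4.35 and 3.27 to 72.9, 66.7 and 75.7 CPM in knockout cells. Its fold was larger in the knockout (2.13 ± 0.13), while its level was lower there under both treatments and its rise in CPM was smaller. GDF15, a stress-induced cytokine, had 4, 1 and 2 reads in the knockout vehicle libraries, so that its term of 2.89 ± 0.43 rests on few reads. It rose from 12.5, 14.8 and 14.4 to 131, 160 and 152 CPM in control cells and reached 19.4, 15.7 and 15.5 CPM in knockout cells. TRIB3 (0.13 ± 0.11) and SESN2 (0.11 ± 0.07), other genes of this branch, were not called (edgeR quasi-likelihood test, adjusted p = 0.499 and 0.269).

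Amino acid supply, which ATF4 governs, was divided in a like way. Of 12 transporters 6 were below and 3 above 0, of 16 genes of amino acid and one-carbon synthesis 6 were below and 2 above, and of 20 cytosolic tRNA synthetases 7 were below and 3 above. Without 1 library the counts below 0 fell to 3, 3 and 4 at the lowest, and those above 0 reached 4, 3 and 6 at the highest. SLC7A11, the cystine transporter, rose from 8.58, 7.57 and 7.21 to 245, 256 and 247 CPM in control cells and from 71.0, 70.8 and 78.7 to 776, 800 and 828 CPM in knockout cells. Its term was -1.55 ± 0.09 although its level was higher in the knockout under both treatments. SLC38A2, the neutral amino acid transporter SNAT2, had a term of 0.61 ± 0.06. WARS1 (-0.85 ± 0.06) and AARS1 (0.32 ± 0.06), 2 tRNA synthetases, went in opposite directions.

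**Figure D4:**
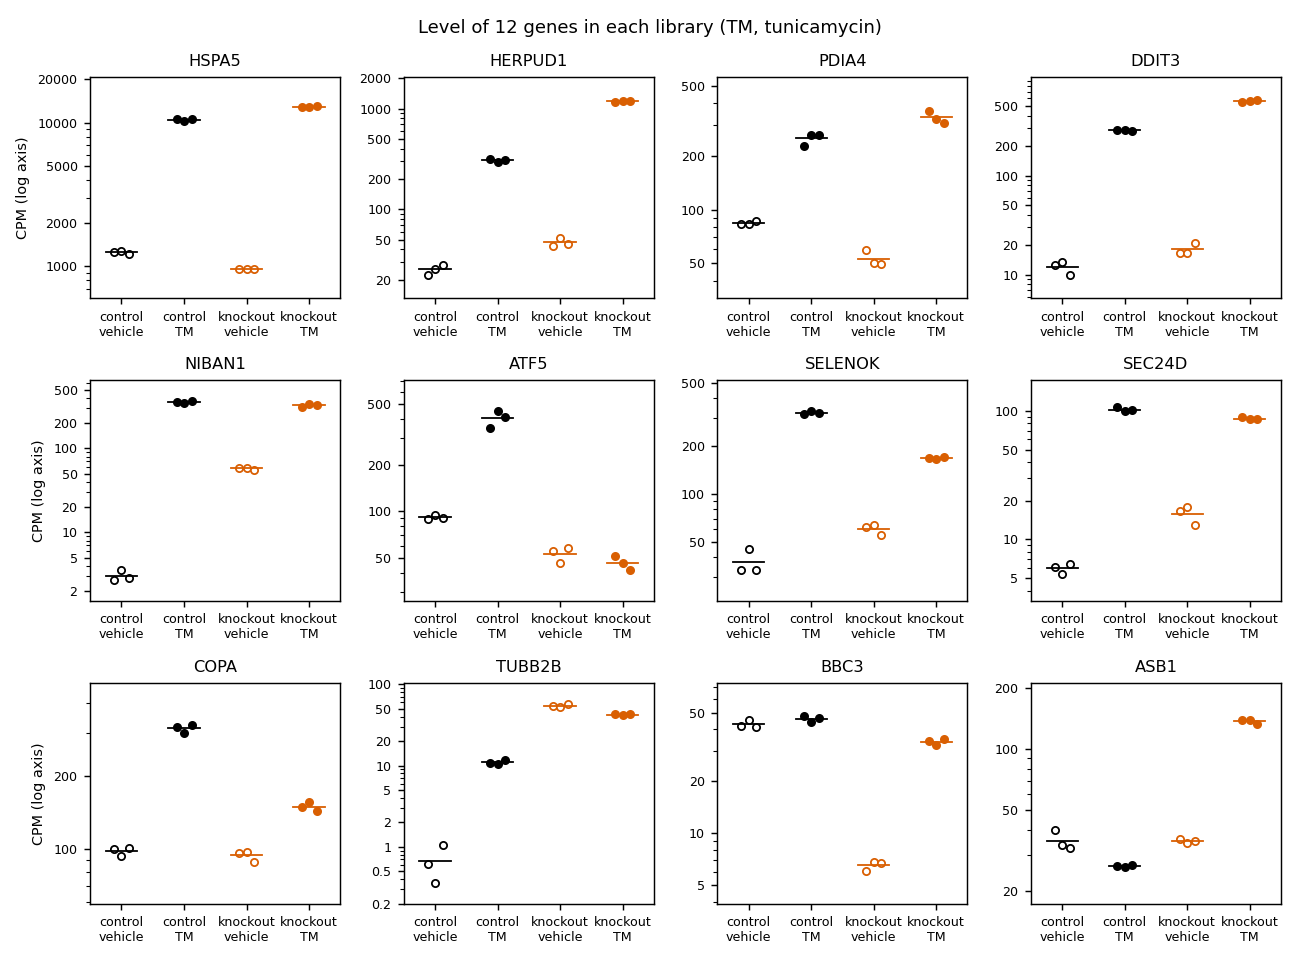
Level of 12 genes in each library as CPM on log axes, in control cells (black) and CARM1 knockout cells (orange), with vehicle (open) and tunicamycin (TM, filled), and the mean of each group as a line. HSPA5, HERPUD1, PDIA4 and DDIT3 rose further in the knockout, NIBAN1, SELENOK, SEC24D and COPA rose less, ATF5 rose in control cells alone, TUBB2B went in opposite directions, and BBC3 and ASB1 rose in the knockout alone.

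The lowest terms among genes with at least 10 CPM in a group of each genotype often belonged to genes that the knockout already expressed without stress. NIBAN1, a stress-induced regulator of translation (chromosome 1), rose from 2.73, 3.53 and 2.88 to 362, 351 and 365 CPM in control cells and from 59.2, 58.9 and 55.7 to 313, 337 and 327 CPM in knockout cells. The 2 genotypes thus nearly met under tunicamycin from vehicle levels far apart, and its term was -4.39 ± 0.10, the lowest of these genes. MAP1B, a microtubule-associated protein, rose from 29.1, 35.02 and 29.9 to 468, 415 and 456 CPM and from 939, 894 and 904 to 1554, 1605 and 1591 CPM (-3.04 ± 0.08). TUBB2B, a beta tubulin, had 0.608, 0.360 and 1.05 CPM (8, 5 and 16 reads) with vehicle and 10.9, 10.5 and 11.8 CPM with tunicamycin in control cells. In knockout cells it fell, from 53.8, 52.6 and 57.7 to 42.7, 41.7 and 42.6 CPM, and its term was -4.36 ± 0.21. MICAL2 (-3.65 ± 0.25), MBNL2 (-2.56 ± 0.16) and FAM167A (-2.42 ± 0.21) made up the rest of the 8 lowest together with ATF3 and CCPG1.

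Most of the 8 highest terms came from genes with low vehicle levels in the knockout or from genes that fell or were not called in control cells and rose in the knockout. KCNJ4, an inward rectifier potassium channel, was neither, since it fell in both genotypes, by 2.41 in control and 0.57 in knockout cells (1.84 ± 0.20). ASB1, a substrate adaptor of ubiquitin ligases (chromosome 2), had 40.04, 33.6 and 32.8 CPM in control and 36.0, 34.5 and 35.2 CPM in knockout libraries with vehicle, which overlapped. With tunicamycin it fell to 26.6, 26.3 and 26.9 CPM in control cells and rose to 139, 139 and 133 CPM in knockout cells, a term of 2.37 ± 0.10 (edgeR quasi-likelihood test, adjusted p = 2.68e-12). BBC3 (PUMA), a proapoptotic BH3-only protein, had 41.9, 45.4 and 41.3 CPM with vehicle and 47.8, 44.1 and 46.6 CPM with tunicamycin in control cells, groups that overlapped. In knockout cells it rose from 6.08, 6.82 and 6.76 to 34.1, 32.4 and 35.2 CPM, a term of 2.26 ± 0.12, and it remained below the control level. DNMT3B, a DNA methyltransferase, fell from 25.4, 20.6 and 18.9 to 8.53, 9.21 and 10.6 CPM in control cells and rose from 8.44, 8.05 and 7.21 to 15.6, 17.7 and 14.5 CPM in knockout cells (2.19 ± 0.19). RAB39B (2.55 ± 0.34) had 5, 5 and 2 reads in the knockout vehicle libraries, and HOXB9 (2.75 ± 0.21) had 1.31 to 2.93 CPM there.

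Some genes moved in opposite directions in the 2 genotypes. Of those that rose in control and fell in knockout cells, the matricellular gene CCN1 had a term of -1.89 ± 0.06, the microtubule gene MAP1A -2.25 ± 0.11 and the receptor LRP1 -2.06 ± 0.18. Of those that fell in control and rose in knockout cells, the bHLH gene HES6 had a term of 1.84 ± 0.19 and CDC42EP3, an effector of CDC42, 1.68 ± 0.10. Of 19 immediate early and AP-1 genes, 6 were below 0 (31.6%) and 5 above (26.3%), beside 12.4% and 10.5% of all genes tested. JUNB fell from 52.0, 54.98 and 47.5 to 12.8, 17.2 and 11.5 CPM in control cells and from 21.9, 24.7 and 24.2 to 17.7, 15.3 and 16.01 CPM in knockout cells (1.37 ± 0.16), and EGR1 fell in control and rose in knockout cells (1.28 ± 0.14).

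The called genes of DNA replication and of mitosis lay mostly on opposite sides of 0, and those of G1 on both. Of 16 G1 cyclins and CDK inhibitors, 3 were below 0 and 4 above. Of 39 DNA replication genes, 18 were above 0 and 2 below; 31 fell with tunicamycin in control cells and 23 in knockout cells. MCM10, a DNA replication factor, fell from 131, 127 and 115 to 52.1, 52.0 and 48.5 CPM in control cells and from 53.5, 52.2 and 54.5 to 36.5, 36.5 and 37.03 CPM in knockout cells. Its knockout vehicle libraries were already near the stressed control level, and its term was 0.75 ± 0.09. Of 39 mitosis genes, 11 were below 0 and 0 above by edgeR (2 above at an unadjusted p under 0.05, and 1 above by DESeq2). Up to 3 were above under other scalings or filters and up to 4 without 1 library, and the median term was -0.09. With tunicamycin 24 mitosis genes fell in control cells and 25 in knockout cells, while 10 rose in control cells and 0 in knockout cells. KIF2C, a spindle depolymerase, rose in control cells and was not called in knockout cells, with a term of -0.79 ± 0.09. Ribosome biogenesis, with 11 of 30 genes above 0 and 2 below, leaned the same way as replication. Of 79 ribosomal protein genes 10 were above 0 (12.7%) and 5 below (6.33%), near the 10.5% above and under the 12.4% below of all genes tested. These counts depended on the processing, with 9 to 20 above and 1 to 6 below under other scalings and filters. Without 1 library they were 8 to 23 above and 0 to 8 below.

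The lists of cell death and hypoxic genes had more calls above than below 0, and those of antioxidant, heat shock and lysosomal genes had more below. Above 0 were 18.8% of the cell death and 23.1% of the hypoxic list, beside 10.5% of all genes tested. Among genes with at least 10 CPM in a group of each genotype that share was 16.4%. The shares below 0 were 0 and 11.5%, beside 12.4% of all genes tested. Of 16 genes of the BCL2 family and TRAIL receptors 3 were above 0 (BBC3, BCL2L11 and BOK) and 0 below by edgeR, 2 were below at an unadjusted p under 0.05 and 0 by DESeq2, and TNFRSF10B (DR5), a target of CHOP, rose by 1.42 and 1.67 without a call on the difference (edgeR quasi-likelihood test, adjusted p = 0.0592). VEGFA, an angiogenic factor, rose from 16.1, 16.1 and 19.1 to 46.1, 48.4 and 42.4 CPM in control cells and from 4.71, 5.26 and 5.52 to 36.6, 36.4 and 33.0 CPM in knockout cells (1.37 ± 0.15), and 6 of 26 hypoxia and glycolysis genes were above 0 and 3 below. Of 12 NRF2 antioxidant genes 5 were below and 2 above, of 19 cytosolic and mitochondrial heat shock genes 9 were below and 2 above, and of 23 lysosomal genes 9 were below and 1 above. Below 0 were thus 41.7%, 47.4% and 39.1%, beside 12.4% of all genes tested, and above 0 16.7%, 10.5% and 4.35%, beside 10.5%. Of 10 mRNAs reported as cut by IRE1, 5 were below and 2 above, with SPARC, a matrix glycoprotein, falling by 1.32 in knockout cells against -0.02, not called, in control cells. Of 14 interferon-stimulated genes edgeR called 0, with 1 in each direction at an unadjusted p under 0.05, and DESeq2 called 1 above 0. Of 9 arginine methyltransferases, edgeR called PRMT6 alone (0.69 ± 0.18), which was 11.1% above 0 beside 10.5% of all genes tested. DESeq2 called 2 above 0, and up to 3 were called above 0 without 1 library.

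**Figure D5:**
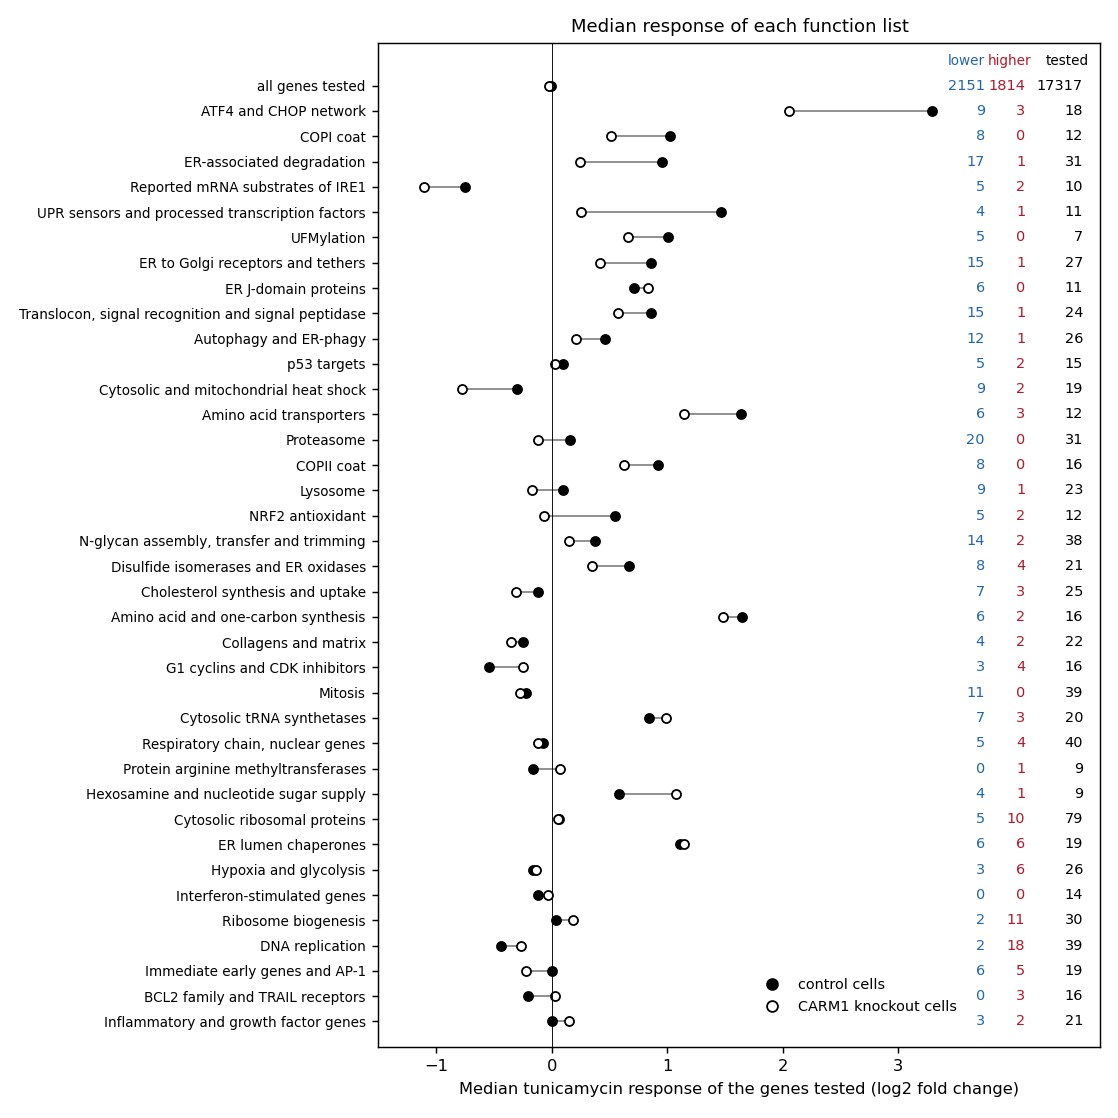
Median tunicamycin response of the tested genes of each function list (horizontal axis, log2 fold change) in control cells (filled) and CARM1 knockout cells (open), ordered by the median interaction term, with the number of members called lower and higher in the knockout and the number tested at the right. The largest gap is that of the ATF4 and CHOP network, 3.30 against 2.06, while the medians of all genes tested lie near 0 in both.

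Promoter sequences were read from RefSeq (assembly GRCh38.p14, the first listed start of each gene, from 250 bases before to 50 after it), in which 11770 of the 17317 genes had an entry. Each motif was searched on both strands. XBP1s binds the core TGACGTGG of the unfolded protein response element (UPRE), while XBP1s and ATF6 both act at the ER stress response element (ERSE), which is CCAAT, 9 bases and CCACG. Its variant ERSE-II is ATTGG, 1 base and CCACG. The 220 bases from 200 before the start are shown for 3 genes that responded more in the knockout (HSPA5, HSP90B1 and HERPUD1) and 3 that responded less (FICD, VCP and COPA), on the strand of the gene, with the matches in capitals.
HSPA5 (chr9:125241324-125241543, minus strand): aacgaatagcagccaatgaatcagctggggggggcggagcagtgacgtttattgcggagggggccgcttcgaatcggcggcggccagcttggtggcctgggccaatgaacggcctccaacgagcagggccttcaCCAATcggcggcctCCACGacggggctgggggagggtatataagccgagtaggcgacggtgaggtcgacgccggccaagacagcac
HSP90B1 (chr12:103930210-103930429, plus strand): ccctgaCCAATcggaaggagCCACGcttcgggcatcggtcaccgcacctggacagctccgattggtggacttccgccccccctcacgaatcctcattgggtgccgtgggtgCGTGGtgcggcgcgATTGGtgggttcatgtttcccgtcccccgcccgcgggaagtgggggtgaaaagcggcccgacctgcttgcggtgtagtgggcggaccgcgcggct
HERPUD1 (chr16:56931942-56932161, plus strand): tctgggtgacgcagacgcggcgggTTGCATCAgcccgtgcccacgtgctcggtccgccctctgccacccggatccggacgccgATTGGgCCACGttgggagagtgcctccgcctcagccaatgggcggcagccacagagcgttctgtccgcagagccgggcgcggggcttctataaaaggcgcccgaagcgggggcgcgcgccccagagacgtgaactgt
FICD (chr12:108515077-108515296, plus strand): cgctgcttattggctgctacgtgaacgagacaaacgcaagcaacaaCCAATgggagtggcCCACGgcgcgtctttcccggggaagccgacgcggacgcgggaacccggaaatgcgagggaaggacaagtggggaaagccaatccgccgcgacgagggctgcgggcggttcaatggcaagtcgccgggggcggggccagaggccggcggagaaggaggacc
VCP (chr9:35072606-35072825, minus strand): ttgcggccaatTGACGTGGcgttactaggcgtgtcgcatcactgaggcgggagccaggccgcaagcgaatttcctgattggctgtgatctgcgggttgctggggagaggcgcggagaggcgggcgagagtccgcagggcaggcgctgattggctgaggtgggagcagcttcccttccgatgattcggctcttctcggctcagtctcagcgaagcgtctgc
COPA (chr1:160343231-160343450, minus strand): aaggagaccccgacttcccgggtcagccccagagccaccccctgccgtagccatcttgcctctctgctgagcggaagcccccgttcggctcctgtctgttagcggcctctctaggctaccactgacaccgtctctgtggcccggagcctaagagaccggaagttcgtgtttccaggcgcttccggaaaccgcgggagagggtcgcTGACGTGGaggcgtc

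HSPA5 held an ERSE from 66 to 48 bases before its start, and HSP90B1 held 1 on each strand. HERPUD1 held an ERSE-II and, from 176 to 169 bases before its start, a C/EBP-ATF element (TGATGCAA on the other strand), the kind of site that ATF4 and CHOP use. FICD, which encodes the AMPylase of BiP and was named after its values were seen, held an ERSE and responded less. It rose from 7.44, 7.13 and 4.59 to 103, 91.2 and 103 CPM in control cells and from 12.7, 13.4 and 11.2 to 72.8, 72.5 and 71.6 CPM in knockout cells, a term of -1.43 ± 0.16. VCP and COPA held the UPRE core, in COPA just after the start.

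The UPRE core was found in 109 of 11770 promoters of tested genes (0.926%), in 32 of 1691 of genes below 0 (1.89%) and in 6 of 1364 of genes above 0 (0.44%), beside 0.795% of all 27305 promoters in the table. Among genes that rose in control cells it was in 59 of 3008 promoters (1.96%), whatever their term. These included 30 of 1292 promoters of those below 0 (2.32%) and 0 of 99 of those above 0, and the rest were of genes without a called term. The share below 0 was thus near that of all genes that rose in control cells, and 99 promoters are few for so rare a motif. The genes below 0 with this core included the coat genes COPA, COPB1, COPB2, ARF1 and SEC24A, the ARF1 exchange factor GBF1, the SNARE STX5, the translocation genes SRP19 and SEC62, and VCP and UBE2J1 of ER-associated degradation. The ERSE was in 14 promoters of tested genes (0.119%), and its genes went both ways: HSPA5, HSP90B1 and XBP1 were above 0, and FICD, ALG12, ERO1B, TRIM5, CRELD2 and SERP1 below. Of 11 tested genes with an ERSE-II (0.0935%), HERPUD1 and SDF2L1 were above 0 and 5 were below. Among genes that rose in control cells, the ERSE was in 6 of 1292 promoters of those below 0 (0.464%) and 3 of 99 of those above 0 (3.03%), the ERSE-II in 4 (0.31%) and 2 (2.02%), and the C/EBP-ATF element in 13 (1.01%) and 4 (4.04%). In all 3008 promoters of genes that rose in control cells these shares were 0.399%, 0.233% and 1.03%. The cAMP response element TGACGTCA, searched for comparison, was in 3.16% of promoters of tested genes, 3.31% of those below and 3.52% of those above 0. A match is a description of the letters, and binding was not measured in these files.

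The XBP1 knockdown cells of the series gave a second reference, whose contrast leaves out the control groups. The control libraries still entered the scaling and the estimate of spread of that fit. Knockdown libraries correlated with control libraries at 0.9613 to 0.9868, so the difference between cell populations stands in this comparison too. The knockout response minus the knockdown response, in a fit of all 18 libraries, was below 0 in 1862 genes (10.8%) and above 0 in 1600 (9.24%). HSPA5 rose by 2.99 ± 0.03 in knockdown cells, HERPUD1 by 3.29 ± 0.07 and PDIA4 by 1.48 ± 0.07, and the knockout exceeded these responses by 0.75, 1.37 and 1.15. Of the COPI genes 2 of 12 were below 0 against the knockdown and 8 against the control, and of the COPII genes 4 of 16 and 8. The difference between these counts was not tested. SEC24D rose by 2.97 ± 0.11 and SEC31A by 1.06 ± 0.05 in knockdown cells, 0.53 and 0.35 above the knockout responses, and SRP19 (difference 0.01) and SEC23B (-0.31) were not called. For NIBAN1, ATF5 and STC2 the knockout response was lower than the knockdown response by 5.35, 2.68 and 1.55, and for ASB1 and BBC3 it was higher by 2.52 and 2.03. Both differences share the knockout libraries, so likeness between them is no independent result.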

How the data were processed

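The libraries were made by 3′ mRNA sequencing with 75 nt single reads. The authors aligned reads to hg19 with bowtie2 and estimated gene-level expected counts with RSEM, version 1.2.3 per the submitters' processing notes, which also name DESeq2. A step that rounds to whole numbers was applied to the deposited expected counts before the fit. Genes were kept by filterByExpr (minimum count 10, over the 18 libraries of the series), which left 17317. A quasi-likelihood model was fitted to the 12 libraries with TMM scaling in edgeR 4.0.16 (R 4.3.3), and the interaction, both tunicamycin responses and both genotype differences were taken from it, with Benjamini-Hochberg adjustment over all genes tested at 5%. Standard errors were obtained by dividing the absolute log2 difference by √F. CPM are counts scaled to a common library size with the TMM factors. Because reads come from transcript ends, CPM were not divided by length and levels were not compared between genes. Fitted fold changes of genes with few reads depend on the prior count and are no bounds, and list medians include such genes.

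Totals of 9367462 to 13917212 counts per library set the precision, which is lowest for genes with few reads. The 18-library fit gave the knockdown comparison. Alternatives were RLE scaling, library totals, other filters, a replicate block, DESeq2 1.42.0, 1% and 1.5-fold thresholds, and each library left out, and the script was tested on simulated data. Named genes were 6 pathway genes, the 8 lowest and 8 highest terms, up to 3 called members in each direction of each function list, and the 4 largest terms in each opposite pattern, all but the 6 with a mean of at least 10 CPM in a group of each genotype. Other genes, such as those named only as list members, uncalled ones, FICD and the genes with promoter matches, were named after their values were seen. The gene lists, the members and the comparisons were chosen with earlier results of these data known. Columns hold 12 libraries here and 6 of the XBP1 knockdown.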

Additional observations from a re-analysis of the deposited data

Results flagged for a closer look

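The 2 genotypes' responses to tunicamycin differed by the interaction test in 2151 genes with a lower and 1814 genes with a higher response in the knockout, and 25 genes chosen by the naming rule are among them. The terms below 0 were those of NIBAN1 (-4.39), TUBB2B (-4.36), ATF3 (-4.19), MICAL2 (-3.65), MAP1B (-3.04), MBNL2 (-2.56), FAM167A (-2.42) and CCPG1 (-2.40), followed by MAP1A (-2.25), LRP1 (-2.06), CCN1 (-1.89) and ATF4 (-0.52). The terms above 0 were those of GDF15 (2.89), HOXB9 (2.75), RAB39B (2.55), ASB1 (2.37), BBC3 (2.26), DNMT3B (2.19), DDIT4 (2.13) and KCNJ4 (1.84), followed by HES6 (1.84), CDC42EP3 (1.68), HSPA5 (0.67), DDIT3 (0.39) and XBP1 (0.37). Groups of 3 libraries are too small for a test of single outlying libraries. DNAJB9 was not called, with or without any 1 library. CARM1 was not called with all libraries and was called above 0 in 8 of the 12 fits without 1 library.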

How the results depend on the processing

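No gene chosen by the naming rule changed direction under any alternative. The other genes named in the text were not followed through the alternatives one by one. With a false discovery rate of 1%, 1419 terms were below and 1112 above 0, 853 genes fell in control cells and had a term above 0, 103 rose in control and fell in knockout cells, 62 did the opposite, and 1125 and 986 genes were below and above 0 against the knockdown. With a 1.5-fold minimum these were 1059 and 882 terms, 2034 rises and 1797 falls in control cells, 1237 and 1138 in knockout cells, 736 and 556 terms of genes that rose or fell in control cells, 40 and 23 opposite patterns, 109 and 40 members of the function lists, and 838 and 682 genes against the knockdown. The pattern of rising in control and falling in knockout cells held 142 genes without a filter, and the opposite pattern 214 with at least 10 counts in every library. Over the fits without 1 library, terms below 0 ran from 1467 to 1978 and above 0 from 1549 to 2324, genes that rose in control cells with a term below 0 from 1145 to 1526, those that fell with a term above 0 from 1190 to 1730, the 2 opposite patterns from 124 to 182 and from 114 to 217, and list members from 186 to 239 below and from 92 to 150 above 0. Replicate numbers did not pair the libraries: deviations of same-numbered libraries correlated at -0.04 to 0.039 over 18 pairs. With a replicate block 2033 terms were below and 1714 above 0. Genes with few reads in a vehicle group, such as GDF15 and RAB39B, have the widest errors, and the causes of these changes were not tested.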
